A study of Mus musculus with 2 samples.

Results

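Neurosphere G2/M cells were the 855 neurosphere cells, of 4276 kept in that library and 9327 kept in both, that held the largest share of their UMIs (unique molecular identifiers, each a counted transcript) on 8 mitosis genes. The cells were GL261, a mouse glioma line of C57BL/6 origin that the labels call Astrocytoma. It was grown either adherently in DMEM with 10% FBS or, for 12 days, as neurospheres in the same medium with 20 ng/ml EGF, 20 ng/ml FGF and B-27. Both cultures were trypsinized by the labels, and the neurospheres were also broken up by trituration through pipette tips, so the dissociation differed between them. Each was made into 1 10x Genomics library, and both come from 1 cell line, so neither holds the cell types of a tumor. After genes of the mitochondrial genome and of ribosomal proteins were dropped, neurosphere cells with at least 1000 UMIs and 2250 genes were kept. The score was the summed UMIs of Ube2c, Cdc20, Plk1, Aurka, Cenpf, Aspm, Ccnb1 and Top2a over the UMIs left in the cell. The top 20% were the members and were compared with the bottom 50% (2138 cells), with the middle 30% (1283 cells) given beside them. The libraries shared 12 cell barcodes, of which 2 were members.

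In a dividing cell, DNA is copied in S phase, checked in G2 and shared out in mitosis (M). The genes of G2 and mitosis are held down for most of the cycle by the DREAM complex and switched on late by B-MYB and FOXM1. Many of them carry the cell cycle homology region (CHR, TTTGAA) near the start site, often with CCAAT boxes that bind NF-Y. Cyclin B with Cdk1 drives entry into mitosis, and the anaphase-promoting complex (APC/C), a ubiquitin ligase, ends it by having cyclin B and securin destroyed. GL261 is a fast-dividing line, and cultures of such cells hold all phases at once.

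Because the score chose the cells, its 8 genes and all other genes of the same cells are given as a description, without a test. The scores of members ran from 0.24% to 1.41% of the UMIs left (median 0.373%), and those of the bottom 50% from 0 to 0.048%. The last member had a score of 0.23989% (96 of 40019 UMIs) and the first cell outside 0.23986% (34 of 14175 UMIs), and 222 cells lay within 10% of that score, so the edge is a line through a range and not a gap. A member held a median of 75 UMIs of the 8 genes (15 to 492), and a cell of the bottom 50% held 1 (0 to 21). All 8 genes were counted in 462 of the 855 members, and 895 cells of the bottom 50% held none.

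The promoters of the score genes are shown for 3 of them, because most score genes carry these motifs near the start site, which the score did not use. Each line is the 150 bases before the start site of the RefSeq promoter table for GRCm38.p6, read 5′ to 3′ on the gene's strand, with TTTGAA and CCAAT in capitals on either strand (TTCAAA and ATTGG are the same motifs on the other strand). Ube2c (the E2 enzyme that the APC/C uses) lies on the plus strand at chr2:164769779-164769928, Cdc20 (an activator of the APC/C) on the minus strand at chr4:118437344-118437493, and Top2a (topoisomerase II alpha, which untangles sister chromatids) on the minus strand at chr11:99024190-99024339.
Ube2c: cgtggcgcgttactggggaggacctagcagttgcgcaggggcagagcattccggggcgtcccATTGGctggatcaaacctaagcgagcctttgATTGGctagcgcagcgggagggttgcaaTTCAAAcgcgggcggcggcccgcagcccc
Cdc20: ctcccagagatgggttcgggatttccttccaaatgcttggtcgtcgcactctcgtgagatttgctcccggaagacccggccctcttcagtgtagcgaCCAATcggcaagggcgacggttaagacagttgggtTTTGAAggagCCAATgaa
Top2a: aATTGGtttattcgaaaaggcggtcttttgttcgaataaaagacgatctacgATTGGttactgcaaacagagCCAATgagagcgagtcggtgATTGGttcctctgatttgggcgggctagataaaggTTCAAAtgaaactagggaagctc
TTTGAA began 29 bases before the start in Ube2c, 18 in Cdc20, and 179 and 23 in Top2a, of which the first lies outside the printed stretch. In Cenpf, Aspm, Plk1 and Aurka it lay 2, 6, 30 and 32 bases after the start, while the Ccnb1 window held no TTTGAA and 2 CCAAT matches.

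Of the 8 score genes, 7 had TTTGAA and 8 had CCAAT in the window from 250 bases before to 50 after the start, against 17.9% and 37.4% of all 32851 promoters in the table. A wider set that the score did not use, the 95 genes of 6 mitosis lists (cyclins, kinases, APC/C activators and targets, kinesins, kinetochore, spindle), matched 79 genes with 86 promoters, of which 55.8% held TTTGAA and 69.8% CCAAT. Both motifs stood together in 44.2% of these promoters and in 6.95% of all promoters. The DNA replication list, which peaked in other cells, had TTTGAA in 17.5% and CCAAT in 56.1% of 57 promoters. Among the promoters of genes over 2-fold lower in the members, 13.3% held TTTGAA. A match of letters is not a bound site, and the 3′ counts used here do not show which start site was used.

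UMIs were summed over the cells of a set and divided by the UMIs left in that set to give CPM (counts scaled to a common total). Ube2c was at 1594 CPM in members, 383 in the middle 30% and 30.1 in the bottom 50%, a log2 ratio of members over bottom of 5.73 (95% counting interval 5.62 to 5.84). Plk1, the polo-like kinase of mitotic entry, was at 126, 40.1 and 2.43 CPM, and Aurka, the kinase of the spindle poles, at 198, 57.7 and 5.88 CPM. Ccnb1 (cyclin B1) was at 367, 99.0 and 11.6 CPM, and Cdc20 at 851, 314 and 34.4 CPM. All 8 genes had their highest level in the members, which the score fixed. Top2a differed in the spacing of its levels, with 569 CPM in members, 352 in the middle 30% and 45.3 in the bottom 50%, so that its middle level was nearer to the members' than that of the other 7 genes. Ube2c alone gave 38.9% of the members' score UMIs, Cdc20 20.7% and Aspm 1.58%, so the score weighs the genes unequally. When each gene was left out of the score in turn, the members chosen by the other 7 still had that gene at a higher level than the bottom 50%, with log2 ratios (1 CPM added) from 2.80 for Top2a to 4.97 for Plk1, and 87.7% to 99.1% of the members were kept.

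**Figure D1:**
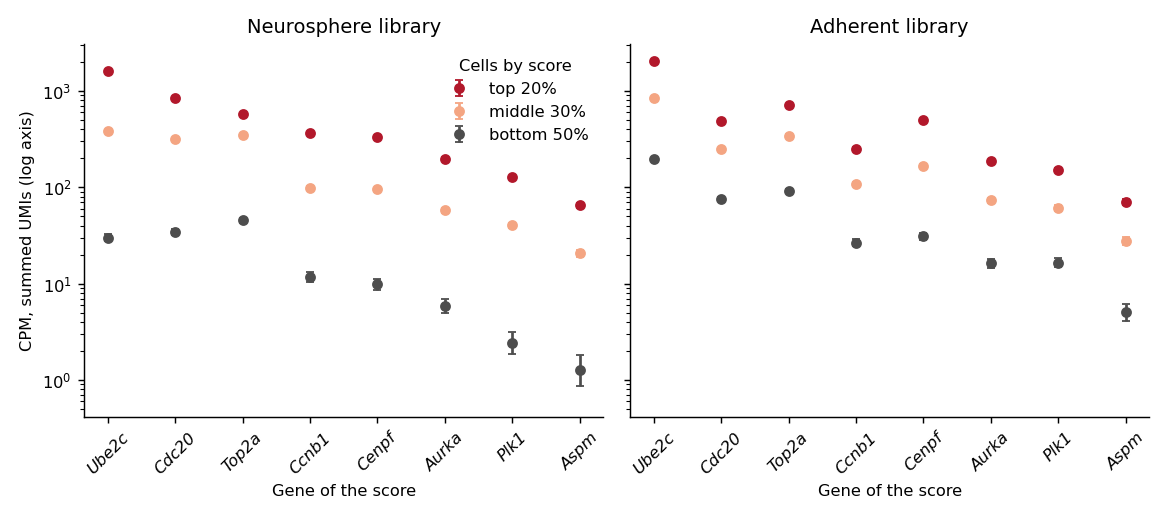
CPM (summed UMIs, log axis) of the 8 score genes in the top 20%, middle 30% and bottom 50% of cells by score, in the neurosphere library (left) and the adherent library (right), with bars for the 95% Poisson interval of counting. The members of the neurosphere library stood at 64.9 to 1594 CPM and the bottom 50% at 1.28 to 45.3 CPM, and in the adherent library the bottom 50% lay higher, at 5.06 to 196 CPM.

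Members were larger cells by UMI content. Their median was 19090 UMIs per cell (quartiles 13995 and 25545), against 15814 in the middle 30% and 9863.5 in the bottom 50%, 1.94 times the last. They also had more genes per cell (median 5167 against 3701.5), but with every cell thinned to 5000 UMIs the medians were 2473 and 2466 genes. Of the members, 108 (12.6%) were among the 5% of kept cells with the most UMIs, against 0.889% of the bottom 50%. Without those cells the ratio of medians was 1.83. No doublet caller was applied, and the part of doublets in the UMI content was not tested. Mitochondrial genes took a median of 3.37% of UMIs in members and 4.45% in the bottom 50%, and ribosomal protein genes 16.0% and 15.9%.

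Across the transcriptome, 288 of 11632 genes with at least 100 UMIs over the members and the bottom 50% were over 2-fold higher in members (2.48%) and 512 were over 2-fold lower (4.4%), by the log2 ratio with 1 CPM added. These are counts by size alone, since 1 library allows no test. The median log2 ratio over all these genes was -0.14, and TMM and DESeq2 scaling moved it by 0.18 and 0.21. Of the genes past 2-fold, 36.0% were higher in members, against 56.6% with TMM (396 higher, 304 lower) and 61.1% with DESeq2 size factors (423 higher, 269 lower). Set against all other kept cells in place of the bottom 50%, 153 genes were higher and 139 lower. Without the barcodes found in both libraries the counts were 290 and 512.

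Genes of mitosis that the score did not use were higher in members almost as a whole. Of the 95 genes of the 6 mitosis lists, 89 were over 2-fold higher, beside 2.48% of all genes, with a median log2 ratio of 2.91. Together they took 15339 CPM in members, 9568 in the middle 30% and 3165 in the bottom 50%. Of the 95, 86 were higher in members than in the middle 30%. Cdk1, the kinase that cyclin B activates, was at 932 CPM in members and 97.3 in the bottom 50%, 9.58 times as high. Mki67, the proliferation antigen that coats mitotic chromosomes, was at 122 and 6.09 CPM. In cells thinned to 5000 UMIs, Mki67 had a UMI in 42.9% of members and 2.08% of the bottom 50%, and Cdk1 in 94.0% and 27.1%.

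All 13 mitotic kinesins, the motors that build the spindle and move chromosomes, were over 2-fold higher, with a median log2 ratio of 3.79. Cenpe, the kinesin at the kinetochore, was at 195 CPM in members and 5.96 in the bottom 50%. Kif23, which bundles the midzone for cytokinesis, was at 70.9 and 2.47 CPM, and Kif20a, of the central spindle, at 142 and 6.09 CPM. The spindle and cytokinesis list was also over 2-fold higher in 20 of 20 genes (median 3.32). Nusap1, a spindle protein that binds microtubules, was at 230 and 6.33 CPM, and Hmmr, a hyaluronan receptor that also binds the spindle, at 371 and 11.4 CPM. Pimreg, a regulator of chromosome segregation, was at 100.96 and 3.62 CPM. These 5 genes (Cenpe, Kif23, Nusap1, Hmmr and Pimreg) stood among the 12 largest ratios of all genes with the 7 score genes other than Top2a.

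The kinase and checkpoint list was over 2-fold higher in 15 of 15 genes (median 3.04). Birc5 (survivin), Incenp, Cdca8 and Aurkb form the chromosomal passenger complex, and Birc5 was at 776 CPM in members and 73.9 in the bottom 50%, Incenp at 93.0 and 7.94, Cdca8 at 369 and 29.3, and Aurkb at 133 and 10.53 CPM. The 4 subunits thus lay 10.5 to 12.7 times as high in members. Of the spindle checkpoint, Bub1 was at 79.1 and 8.76 CPM and Bub3 at 493 and 186 CPM, the smaller of the ratios. In the kinetochore list 26 of 31 genes were past 2-fold (median 1.65). Nuf2 (69.0 against 6.54 CPM) and Ndc80 (52.8 against 6.13 CPM), which hold microtubules, were among these, whereas Zwint (368 against 259 CPM) and Cenpc1 (81.7 against 41.7 CPM) did not pass 2-fold. The cyclin and Cdk regulator list was past 2-fold in 10 of 11 genes (median 3.06). Ccna2 (cyclin A2) was at 168 and 12.5 CPM, Cdc25c, a phosphatase that turns Cdk1 on, at 62.2 and 3.41 CPM, and Wee1, a kinase that holds Cdk1 off, at 41.8 and 16.4 CPM. Pkmyt1, the other such kinase, was at 15.2 and 7.82 CPM and did not pass 2-fold.

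Of the 13 core subunits of the APC/C itself, 0 were over 2-fold higher or lower (median log2 0.18), near the 2.48% and 4.4% of all genes, and their sum was 1462 CPM in members, 1476 in the middle 30% and 1298 in the bottom 50%. Cdc23, a scaffold subunit, was at 53.3 CPM in members and 33.8 in the bottom 50%. By contrast 5 of 5 activators and targets were over 2-fold higher, among them Pttg1 (securin, which guards cohesin cleavage) at 896 and 222 CPM, Espl1 (separase, which cuts cohesin) at 40.4 and 2.63 CPM, and Ube2s, the chain-extending E2, at 1142 and 505 CPM. Of 18 genes of the DREAM, B-MYB, FOXM1 and E2F machinery, 1 was past 2-fold, also near the share of all genes, namely Foxm1 at 41.1 CPM in members and 4.57 in the bottom 50%. Mybl2 (B-MYB) was at 10.99 CPM in members, 20.1 in the middle 30% and 6.50 in the bottom 50%, and E2f1 at 32.6, 59.3 and 41.6 CPM, so both were highest in the middle set.

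**Figure D2:**
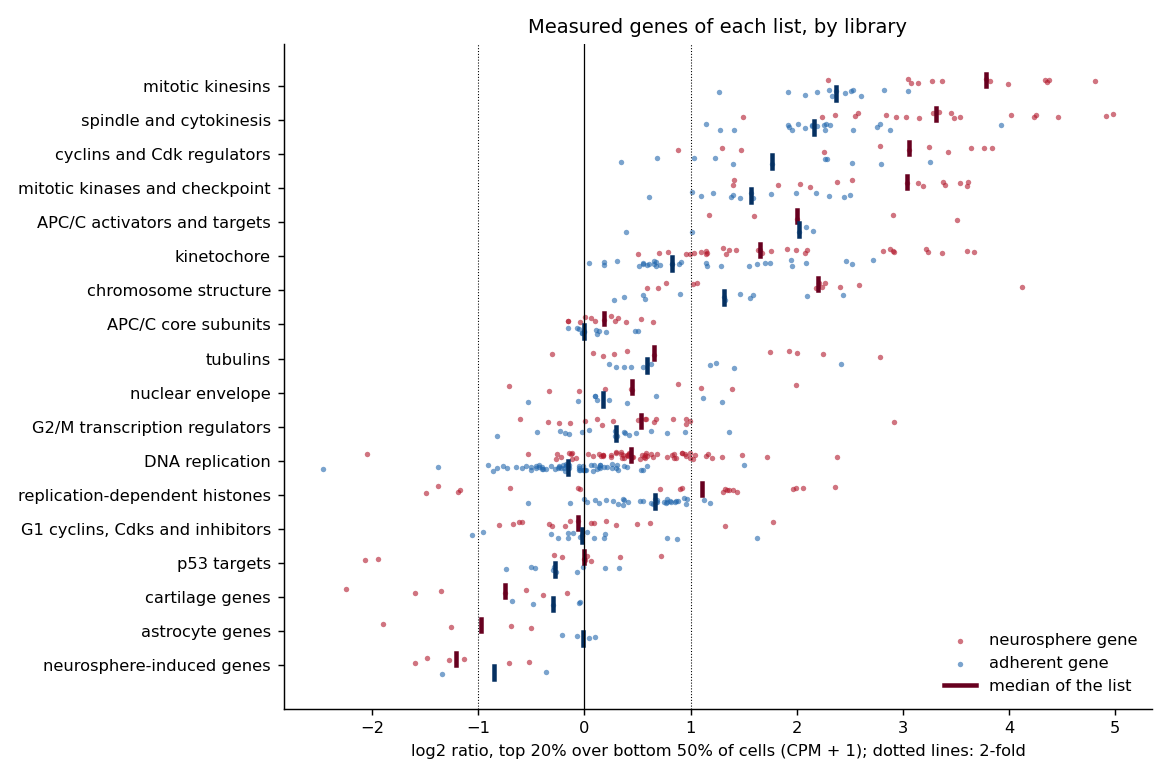
Log2 ratio of the top 20% over the bottom 50% of cells (x axis, 1 CPM added) for each measured gene of 18 lists (y axis), in the neurosphere library (red) and the adherent library (blue), with bars at the median of each list and dotted lines at 2-fold. The medians of the 6 mitosis lists lay right of 2-fold in the neurosphere library, the median of the APC/C core subunits was 0.18, and all astrocyte and neurosphere-induced genes measured in that library lay left of 0. The median of all genes measured there was also left of 0, at -0.14.

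Most listed genes that package chromosomes were also higher in members. In the chromosome structure list (condensins, HMG proteins, Mki67) 9 of 12 genes were over 2-fold higher (median 2.20), a share to read, as for the lists that follow, beside the 2.48% of all genes. Hmgb2, a DNA-bending HMG protein, was at 3244 CPM in members, 2417 in the middle 30% and 541 in the bottom 50%, and Smc4, a condensin ATPase, at 316, 208 and 67.5 CPM. The condensin II subunit Ncapd3 was at 61.9 CPM in members and 71.15 in the middle 30%. Of 11 measured tubulins 5 were past 2-fold, namely Tubb4b (525 against 75.5 CPM), Tubb6, Tuba1c, Tubb5 and Tuba1b, whereas Tubb2b (1457 against 1293 CPM) and Tuba1a (1325 against 1088 CPM) were not. Tubulin genes are close copies of each other, so counts could be split between them. In the nuclear envelope list 3 of 10 genes were past 2-fold, led by Lmnb1 (lamin B1) at 208 and 51.7 CPM, while Lmna (lamin A) was at 50.3 and 83.0 CPM. Of 9 variant histones 3 were past 2-fold (H2afx, H1f0 and H1fx), and H2afx, whose phosphorylated form marks DNA breaks, was at 135 and 42.6 CPM.

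The score ordered cells so that DNA replication genes peaked before the members. With the kept cells in 10 equal sets by score, the 64 genes of the replication list took 1875 CPM in the lowest set, 7936 in set 6, 7911 in set 7, and 6185 and 5350 in sets 9 and 10, which are the members. The lowest 2 sets hold no score UMI at all and are divided only by the order of cells in the files. Over the 3 score ranges the list was at 5746 CPM in members, 7708 in the middle 30% and 3757 in the bottom 50%, and 59 of its 64 genes had their highest level in the middle 30%, against 21.5% of all genes measured. Of the members, 85 (9.94%) were also in the top 20% by the replication list, against 44.0% of the middle 30% and 9.64% of the bottom 50%. Over all kept cells this share is 20% by construction. Both rankings use shares of the same UMIs of the same cells, which are not replicates, so these shares are a description.

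Single replication genes differed in how the 3 score ranges ranked. Pcna, the sliding clamp, was at 191 CPM in members, 306 in the middle 30% and 151 in the bottom 50%. The helicase loader Cdc6 was lower in members (17.3 CPM) than in the middle 30% (41.8) and the bottom 50% (25.3). Ung, which removes uracil from DNA, was the 1 gene of the list over 2-fold lower in members, at 7.44 CPM against 33.0 and 34.0. Of the 64 genes of the list 9 were over 2-fold higher and this 1 lower, beside 2.48% and 4.4% of all genes, with Dbf4, the activator of the Cdc7 kinase, at 202 CPM in members, 121 in the middle 30% and 38.0 in the bottom 50%, and Pclaf, which binds the clamp, at 469, 624 and 142 CPM. Dbf4 was thus among the 3 genes of this list with their highest level in members. The G1/S cyclin Ccne2 was at 10.99 CPM in members, 39.2 in the middle 30% and 17.4 in the bottom 50%. Within the G1 list of 17 measured genes 2 were over 2-fold higher and 0 lower, a small count to read against the same shares, namely the Cdk4/6 inhibitors Cdkn2c (102 against 40.1 CPM) and Cdkn2d (183 against 52.7 CPM), and Ccnd1 (cyclin D1) was at 1429 and 1491 CPM.

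**Figure D3:**
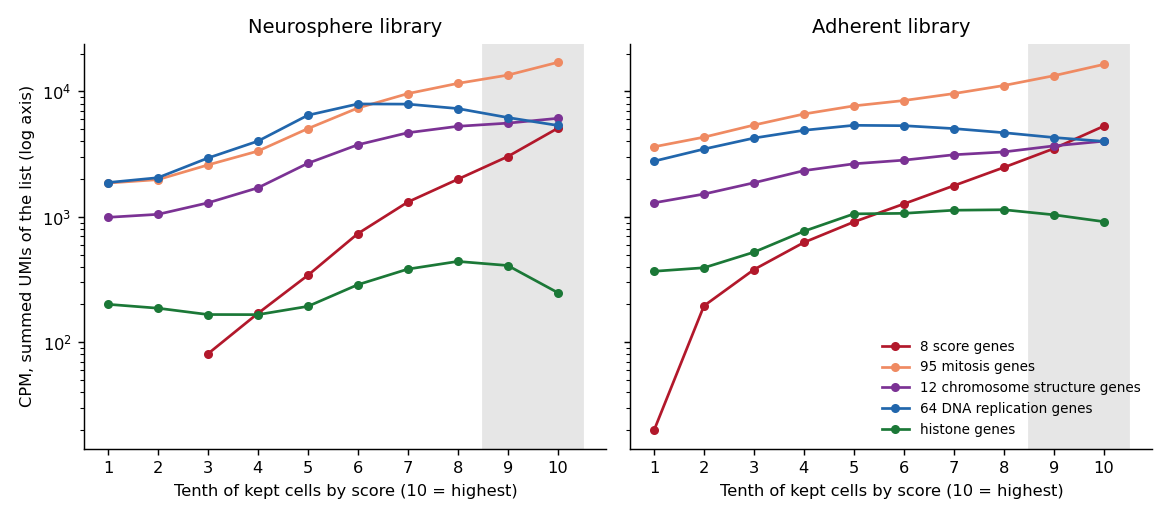
Summed CPM (log axis) of the 8 score genes and of 4 gene lists over 10 equal sets of kept cells ordered by score, in the neurosphere library (left) and the adherent library (right), with the top 20% shaded. In neurosphere cells the DNA replication list peaked at 7936 CPM in set 6 and was at 5350 CPM in set 10, while the mitosis genes went from 1858 to 17023 CPM. The score genes had 0 UMIs in the first 2 sets, which a log axis cannot show.

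Replication-dependent histone genes, whose mature transcripts mostly lack the poly(A) tail that 3′ libraries capture, were measured in 20 of 65 genes and were mixed. Beside 2.48% of all genes higher and 4.4% lower, over 2-fold higher were 10 of them, including Hist1h1b (65.7 CPM in members, 86.0 in the middle 30%, 12.0 in the bottom 50%), and over 2-fold lower were 4, Hist1h1c, Hist1h2bc, Hist3h2a and Hist3h2ba. Hist1h1c, a linker histone, was at 12.4 CPM in members and 33.9 in the bottom 50%. The list's sum peaked at 441 CPM in set 8 of the 10 and was 249 CPM in set 10. These genes are near-identical copies, so single values are uncertain.

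The members were not alike along the late share, the part of their score UMIs that came from Ube2c, Cdc20, Plk1, Aurka and Ccnb1 rather than from Top2a, Cenpf and Aspm. Ordered by it, the 855 members were divided into 3 sets of 285 cells with median late shares of 63.6%, 77.8% and 87.2% and median UMIs per cell of 17943, 20754 and 18047. From the lowest to the highest set Top2a went from 939 to 547 to 254 CPM and Cdc20 from 575 to 891 to 1062 CPM, which the ordering used. Genes outside the ordering differed as well. Mki67 was at 188, 115 and 70.2 CPM, and the histone list at 544, 267 and 186 CPM. Smc4 was at 393, 319 and 243 CPM, Prc1, the midzone bundler, at 403, 342 and 230 CPM, and Fbxo5 (Emi1, an APC/C inhibitor) at 164, 124 and 75.4 CPM.

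In the other direction Pttg1 was at 729, 920 and 1023 CPM, Cenpa, the centromeric histone, at 752, 948 and 1025 CPM, and Ube2s at 1009, 1147 and 1260 CPM. The order of these was the reverse of Mki67 and Fbxo5, while Ccna2 stayed between 155 and 177 CPM and the 95 mitosis genes between 14557.1 and 15840.5 CPM. The nuclear long noncoding RNAs, chiefly Malat1, were at 4591, 2487 and 1812 CPM along the same order. In adherent top 20% cells divided the same way Mki67 was at 230, 142 and 87.2 CPM and the noncoding RNAs at 5492, 3566 and 1841 CPM. Of 51 genes and lists outside the score that were followed along this order, 4 differed in direction between the lowest and highest sets of the libraries. Kif20a was at 119, 148 and 157 CPM in neurosphere members but at 92.2, 76.2 and 60.3 CPM in adherent cells, and the G1 list at 3670, 4261 and 4259 CPM against 3687, 3469 and 3383 CPM. The others were Ccna2 and Cdk1, and some of the lists hold genes that were also followed singly.

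**Figure D4:**
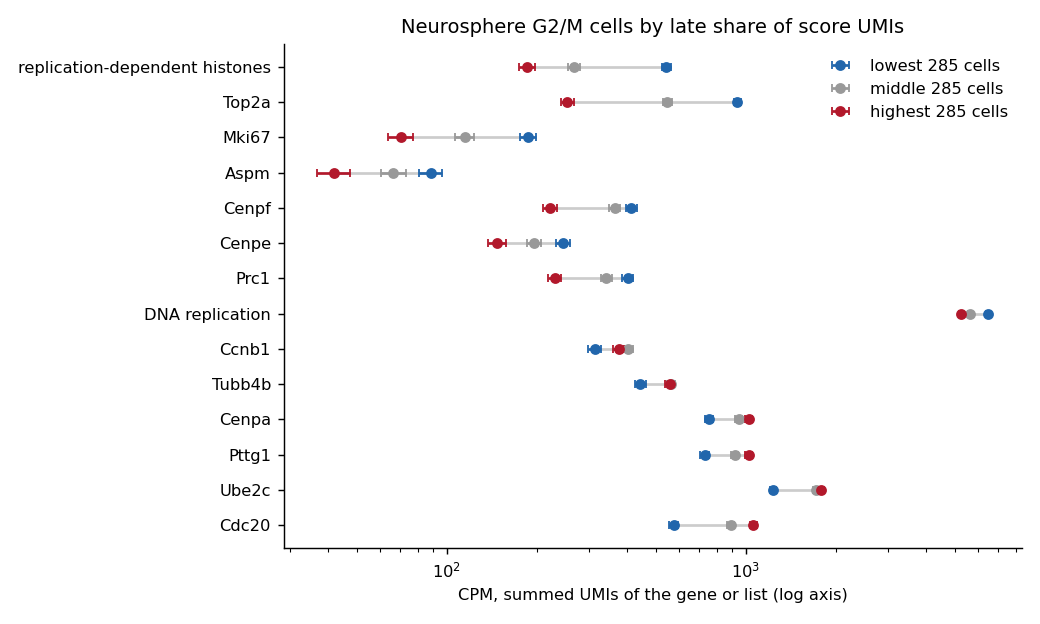
CPM (log axis) of 12 genes and 2 gene lists in the 855 neurosphere G2/M cells divided into 3 sets of 285 by the late share of their score UMIs, with 95% Poisson intervals of counting. Top2a, Mki67 and the histone list lay highest in the lowest set (939, 188 and 544 CPM), and Cdc20, Pttg1 and Cenpa in the highest set (1062, 1023 and 1025 CPM).

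Among genes lower in members, the 12 with the smallest ratios are given singly, and a shared pathway was not tested. Nppb, which encodes a natriuretic peptide, was at 0.564 CPM in members (10 UMIs), 0.699 in the middle 30% and 10.4 in the bottom 50%, a log2 ratio of -4.21 (-5.28 to -3.30). Fbxo32, a muscle ubiquitin ligase and FoxO target, was at 32.7, 52.5 and 142 CPM, and Pik3ip1, an inhibitor of PI3 kinase, at 2.93, 4.46 and 16.1 CPM. Rgs16, a brake on G protein signals, was at 6.76, 13.5 and 43.4 CPM, and Pdzd2, a PDZ domain protein, at 18.1, 23.4 and 103 CPM. Levels in the middle 30% lay between the other sets for each of these 5. The other 7 were Gm41289, Btbd17, Trim55, Comp, Gm36738, Neurl1a and Chit1, with log2 ratios of -2.29 to -3.36 and 0.564 to 8.40 CPM in members.

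**Figure D5:**
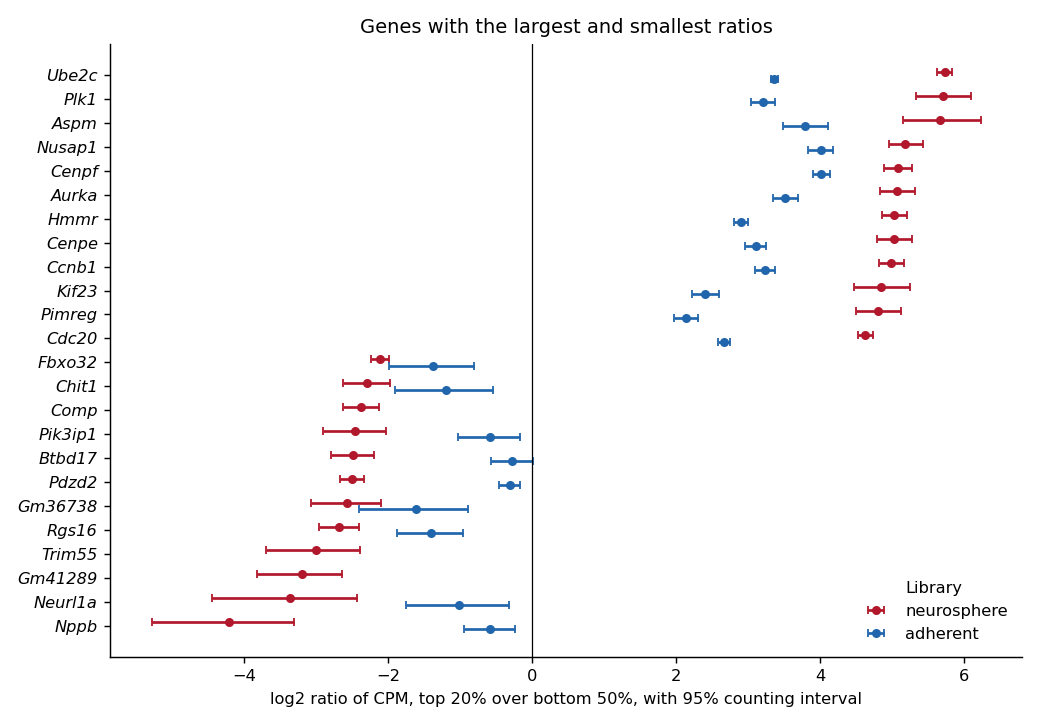
Log2 ratio of CPM between the top 20% and the bottom 50% of cells (x axis) with its 95% counting interval for the 12 genes with the largest and the 12 with the smallest ratio in neurosphere cells (1 CPM added), in both libraries. Neurosphere ratios ran from -4.21 (Nppb) to 5.73 (Ube2c), and a library with 3 or fewer UMIs in a set is left out for that gene.

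Some genes of the neurosphere-induced, cartilage and astrocyte lists were lower in members. The list of neurosphere-induced genes was drawn up from earlier results on these same libraries, so it is not independent of them. Of its 6 genes 4 were over 2-fold lower, beside 4.4% of all genes, namely Krt8, Krt18, Wnt6 and Matn1, which is also in the cartilage list. Under other settings the log2 ratio (1 CPM added) ran from -1.334 to -0.806 for Krt8 and from -1.376 to -0.927 for Wnt6, so these 2 calls depend on the setting. Krt8, a simple epithelial keratin, was at 1959 CPM in members, 2482 in the middle 30% and 4314 in the bottom 50%, and Wnt6, a secreted Wnt ligand, at 138, 187 and 336 CPM. In cells thinned to 5000 UMIs Krt8 had a UMI in 62.9% of members and 68.3% of the bottom 50%. Cartilage genes were past 2-fold lower in 3 of 7 measured, Comp (8.40 against 43.6 CPM), Matn1 (61.7 against 188 CPM) and Col2a1 (45.1 against 117 CPM). All 7 had their highest level in the bottom 50%, as did 55.5% of all genes measured. Of 4 measured astrocyte genes 2 were past 2-fold lower, S100b, a calcium-binding protein, at 163 and 390 CPM and Aldh1l1, a folate enzyme, at 1.92 and 9.83 CPM.

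Of 7 measured neural stem cell genes and 10 oligodendrocyte lineage genes, 0 were past 2-fold, near the 2.48% higher and 4.4% lower of all genes, against which the small lists of p53, immediate early and stress genes are also to be read. Sox2, a stem cell factor, was at 188 CPM in members and 180 in the bottom 50%, Olig2 at 510 and 437 CPM, and Olig1 at 1023 and 1557 CPM. The sum of the stem cell list had a log2 ratio of -0.18, which became 0.0017 with TMM and 0.041 with DESeq2 scaling. Of 10 measured p53 targets 2 were over 2-fold lower, the antiproliferative genes Btg2 (80.7 against 340 CPM) and Trp53inp1 (9.36 against 38.7 CPM), while Cdkn1a (p21) was at 296 and 285 CPM and Bax at 398 and 400 CPM. Immediate early genes had 0 of 9 past 2-fold (median log2 -0.36). Of 8 integrated stress response genes 1, Ddit4, was past 2-fold lower (84.4 against 201 CPM), and Atf4, the factor of that response, was at 443 and 257 CPM. Of 3 measured nuclear long noncoding RNAs 0 were past 2-fold, and Malat1 was at 2561 and 3639 CPM.

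Markers of other cells were at or near 0 in members. Of 8 immune markers 4 (Ptprc, Aif1, C1qa and Tyrobp) had 0 UMIs in members and in the bottom 50%, and the list summed to 4.002 and 6.62 CPM, of which Cd68 gave 3.55 and 5.31 CPM. The 4 endothelial markers summed to 3.55 and 2.43 CPM, nearly all Pecam1, and Cdh5 and Cldn5 had 0 UMIs. By a one-sided limit, unlike the two-sided intervals given elsewhere, a count of 0 allows up to 3 UMIs in 17739146, for counting error only. The 7 genes of the astrocyte list, set beside the label Astrocytoma, summed to 236 CPM in members, of which S100b gave 163 and Slc1a3 57.6 CPM, while Gfap was at 0.620 CPM and Aqp4 had 0 UMIs. The 5 adherent-enriched genes, also drawn up from earlier results on these libraries, summed to 7.16 CPM in members and 13.8 in the bottom 50%, and S100a4 was the 1 of 2 measured genes past 2-fold lower, beside 4.4% of all genes. Its log2 ratio (1 CPM added) of -1.06 ran from -1.325 to -0.547 under other settings, so this call depends on the setting.

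The same rule in the adherent library, with its limit of 1250 genes per cell, took 1010 of 5051 kept cells as the top 20% and 2525 as the bottom 50%. There 179 of 10800 genes (1.66%) were over 2-fold higher and 37 (0.343%) over 2-fold lower. Under other settings the count of lower genes ran from 6 to 73, and its overlap with the neurosphere genes was not computed under them. With 1 library per culture no test of the difference between cultures was possible, and culture and library cannot be told apart. Depth differed with them. With every cell thinned to 5000 UMIs, the mitosis lists had a log2 ratio of 2.39 in neurosphere and 1.39 in adherent cells. Genes over 2-fold higher were then 301 and 172, and genes over 2-fold lower 416 and 32. The part of depth in the difference was not tested further. The 95 mitosis genes were at 15339 CPM in neurosphere members and 14829 CPM in adherent top 20% cells, but at 3165 and 5673 CPM in the 2 bottom sets. Of the 95 genes, 83 had a higher level in the adherent than in the neurosphere bottom 50%, and 93 had a larger ratio in neurosphere cells. The same counts over all genes were not taken. The log2 ratios of all measured genes were also spread more widely in neurosphere cells (interquartile range 0.585 against 0.297). Across the 95 mitosis genes the ratios of both libraries ran together (Pearson r 0.90, Spearman rho 0.89, n = 95 genes, which are not independent). No score UMI was found in 895 of 2138 bottom cells of the neurosphere library and in 442 of 2525 of the adherent library, although the neurosphere cells were deeper (medians 9863.5 and 7327 UMIs).

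For the 5 genes whose log2 ratio was higher in neurosphere than in adherent cells by the most, the libraries differed by a larger fold in the bottom sets than in the top sets. Pimreg was at 100.96 CPM in neurosphere members and 90.3 in adherent top 20% cells, but at 3.62 and 20.6 CPM in the bottom sets, and Hmmr at 371 and 430 CPM against 11.4 and 57.5 CPM. Ube2c, Plk1 and Kif23 made up the rest of these 5. Cdc20 differed in the top sets as well, at 851 CPM in neurosphere members and 482 CPM in adherent cells, and gave 20.7% and 11.04% of the score UMIs. In the opposite direction, among the 5 genes whose log2 ratio was lower in neurosphere than in adherent cells by the most, Nppb was at 7.93 and 11.9 CPM in the top and bottom of the adherent library, Pdzd2 at 50.1 and 62.2 CPM and Btbd17 at 12.7 and 15.4 CPM. Aldh1l1 was at 3.83 and 3.69 CPM and the histone gene Hist3h2ba at 19.3 and 11.02 CPM there.

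Of the 288 genes over 2-fold higher in neurosphere members, 162 were also over 2-fold higher in the adherent top 20%, which is 57.7% of the 281 measured in both and 90.5% of the adherent genes, beside 1.66% of all genes measured in the adherent library. Of the 512 genes over 2-fold lower, 307 were measured in the adherent library and 14 were over 2-fold lower there, 4.56% of those measured and 37.8% of the adherent genes, beside 0.343% of all genes measured there. The ratio was below 0 in both libraries for 279 of the 307, with the neurosphere side fixed by their choice. The median log2 ratio over all genes measured in the adherent library was itself below 0, at -0.078. Those 307 genes had a median log2 ratio of -1.17 in neurosphere and -0.35 in adherent cells. The UMI content of the top 20% was 1.46 times that of the bottom 50% in adherent cells (10714 against 7327), against 1.94 times in neurosphere cells.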

How the data were processed

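The cells were sequenced by 3′ counting (10x Genomics) as 1 neurosphere and 1 adherent library. For each, the authors deposited raw UMI counts per gene and called cell (32285 genes, 4951 and 5764 cells), which Cell Ranger 7.0.1 made on mm10 by the submitters' processing notes. Whether reads in introns were counted is not given in the sources used here. The libraries held 82832873 and 68531063 UMIs.

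From the counts, 13 mitochondrial and 101 ribosomal protein genes were dropped, and cells were kept with at least 1000 UMIs and 2250 (neurosphere) or 1250 (adherent) genes, the limits of the study. The limits were applied after these genes were dropped, and slightly fewer cells were kept than the paper reports. With the cell filter before gene removal there were 860 members and 2150 cells in the bottom 50%. Members and gene lists were chosen with earlier results of these data known. UMIs were summed per set of cells and given as CPM with exact Poisson intervals, and log2 ratios with exact conditional intervals. These 95% intervals cover counting error only. Cells are not replicates, so the data allow no test. Genes past 2-fold were counted by log2((CPM + 1)/(CPM + 1)) among genes whose UMIs came to 100 or more in the members and bottom 50% together. The share of cells in which a single gene was detected was taken after each cell was thinned to 5000 UMIs, which left out 69 of the 2138 bottom cells and no member. No doublet caller was applied.

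Named genes are the 8 score genes, genes of the 28 lists, the 12 largest and 12 smallest neurosphere ratios, and the 5 largest and 5 smallest differences between the libraries. Other settings covered the size of the sets, the filters on cells and genes, thinning, cell weights, scaling (TMM in edgeR 4.0.16, size factors in DESeq2 1.42.0), the CPM added and each score gene left out. Promoters came from RefSeq (GRCm38.p6). Python 3.11.15 with numpy 2.4.6 and scipy 1.17.1 was used, and the interval code was tested on simulated counts.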

Additional observations from a re-analysis of the deposited data

Results flagged for a closer look

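In 5 results the 2 libraries lay on opposite sides of 0, each with a counting interval that left out 0, and with 1 library per culture the difference was not tested. The DNA replication list had a summed log2 ratio (top 20% over bottom 50%) of 0.61 in neurosphere and -0.037 in adherent cells. The G1 list had 0.068 and -0.022, and the integrated stress response list 0.15 and -0.15. The nuclear long noncoding RNAs had -0.54 and 0.068, with Malat1 at 3376 and 3150 CPM in the adherent sets. Hist3h2ba had a log2 ratio of -1.29 in neurosphere and 0.80 in adherent cells. Under the other settings the neurosphere values kept their sign, but the replication list fell to 0.018 against all other kept cells and 0.44 with the score without Top2a. The adherent replication value was above 0 under 7 of 20 settings. The adherent G1 value was above 0 under 5 of 20, at 0.078 with TMM and 0.097 with DESeq2 size factors, so that both libraries then lay on the same side. The adherent value of the noncoding RNAs was below 0 under 2 of 20, and the adherent stress response and Hist3h2ba values kept their sign.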

How the results depend on the processing

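Across 23 other settings, of which 1 (without shared barcodes) was chosen after seeing the data, 71 of 103 neurosphere values stayed within 1.5 times (counts of genes), within the counting interval (lists) or within an interval from the order of the cells (ratio of median UMIs), 32 moved and 0 reversed. The cause was not tested beyond what each setting changes by its construction. Set against all other kept cells, the neurosphere values were 153 genes higher, 139 lower, a log2 ratio of 0.018 for the DNA replication list, 1.29 for the mitosis lists, and 1.60 for the ratio of median UMIs. Genes lower in members were 304 with TMM, 269 with DESeq2 size factors and 224 with at least 500 UMIs per gene. The replication list was 0.51 and 0.73 with the top 10% and 30% as members, 0.75 without cells over the 95th percentile of UMIs, 0.60 with cells under 10% mitochondrial UMIs, 0.78 thinned to 5000 UMIs, 0.82 with cells weighted equally, 0.80 with TMM, 0.84 with size factors and 0.64 with mitochondrial and ribosomal genes in the total. It was 0.67, 0.73, 0.59 and 0.44 with the score without Ube2c, Cdc20, Cenpf and Top2a. The mitosis lists were 2.43 and 2.17 with the top 10% and 30%, 2.39 without the cells of most UMIs, 2.39 thinned, 2.48 weighted equally, 2.46 with TMM, 2.502 with size factors, 2.30 with all genes in the total, and 2.22, 2.26 and 2.20 without Cdc20, Ccnb1 and Top2a. In the adherent library, where all settings were added after seeing the data, 60 of 86 values stayed, and 26 moved. Genes lower there were 73 and 20 with the top 10% and 30%, 16 against all other cells, 60 and 6 with at least 20 and 500 UMIs per gene and 67 with 0.1 CPM added. Its replication list was -0.090, 0.022 and -0.14 in the first 3 of these, 0.0018 without the cells of most UMIs, -0.0087 thinned, 0.042 weighted equally, 0.063 with TMM, 0.082 with size factors, and 0.0073, 0.021 and -0.097 without Ube2c, Cdc20 and Top2a. Its mitosis lists were 1.53, 1.27 and 0.99 in the first 3, 1.45 without the cells of most UMIs, 1.46 weighted equally, 1.49 with TMM, 1.51 with size factors, and 1.36 and 1.37 without Cdc20 and Top2a. In the neurosphere library the 27 genes named by score or size of ratio kept their direction in all 567 values, and lists other than replication did in 518 of 520, the exceptions being the neural stem cell list under both scalings. Of 156 measured list genes past 2-fold 155 kept their direction under 21 settings, all but Hist1h1a (lowest value -0.0065), as did 119 of the other 187, Pcna and Mybl2 being among those that did not. No paired analysis was possible because each culture has 1 library and no test was run. Depth limits genes under 100 UMIs and shares of cells, and 1 library per culture limits every comparison.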
